A study of Mus musculus with 30 samples.

Results

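The genes described here are 37 type I interferon-stimulated genes of the mouse, 37 of the 29861 genes in the expression table. They were taken by symbol from a list of well known interferon targets, matched to gene identifiers through the GENCODE M21 annotation. This rule uses no expression value, but the list was chosen with earlier results of these data known. The shares of members set against all tested genes are therefore not those of a list chosen blind. All 37 were found and all 37 passed the filter on low values. They were measured by RNA sequencing in CCG-HTA-1, a line of primary tail fibroblasts from UMHet3 mice, a genetically mixed stock, at passage 4. The series title concerns a screen of small molecules for protection of cells against stress. Every library came from cells grown in high glucose medium without pyruvate, with 10% serum, at ambient oxygen and 10% CO2, and RNA was taken 48 h after the compound was added.

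The 9 groups were the solvent DMSO (6 libraries) and 8 compounds with 3 libraries each. Antimycin A blocks mitochondrial complex III, and Dihydrorotenone is a relative of the complex I inhibitor rotenone. Diphenyleneiodonium Cl inhibits flavin-containing oxidoreductases, Cardamonin is a plant chalcone, Clofilium tosylate blocks potassium channels and Podofilox binds tubulin. BerberineA and AEG 3482 are named as in the labels, and no dose is given for any compound. The labels name 6 DMSO libraries where the series text speaks of 5, and all 6 were used. The donor mice were 5 to 8 weeks old, except that the label of Dihydrorotenone replicate 1 gives 8 to 11 weeks. With a single cell line in the study, replicates are separate samples of it, whether cultures or libraries, and a p-value measures only the spread between such samples, which may be technical.

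Type I interferons bind the receptor IFNAR1-IFNAR2, whose kinases JAK1 and TYK2 phosphorylate transcription factors of the STAT family, STAT2 among them. With IRF9 these form ISGF3, which enters the nucleus and binds the interferon-stimulated response element of its targets. Fibroblasts are a classical source of interferon beta and respond to it with antiviral effectors, while many of the same genes also keep a basal level in unstimulated cells.

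The core of the response element is a pair of GAAA blocks a few bases apart, so promoters were searched for GAAANNGAAA on both strands (TTTCNNTTTC on the other strand), overlapping matches included. Windows ran from 250 bases before to 50 bases after a RefSeq transcript start (GRCm38.p6). Of the 37 members, 28 had a window and 12 of these held the motif (42.9%), against 1079 of 27025 genes (3.99%) and 1131 of 32851 windows (3.44%). The 12 were Ifit1, Ifit3, Ifit3b, Oas1a, Oas3, Rsad2, Isg15, Trim30a, Stat2, Ifi203, Ifitm3 and Bst2. The 16 members with a window and no match were Ifit2, Oasl1, Oasl2, Cmpk2, Isg20, Samd9l, Xaf1, Herc6, Trim25, Irf7, Irf9, Parp12, Dtx3l, Ifi35, Ifi44 and Lgals3bp, most of which, Oasl2, Irf7 and Ifi44 among them, followed the pattern common to the members. The following sequences show the 250 bases before the start for 5 strongly raised members of different roles, all among the 12 with a match. For contrast in sequence only, Ifi35 is added, whose window has no match and which departed from the common pattern. Members without a match, Irf7 and Ifi44 among them, were strongly raised too. The sequences are therefore examples of matches and do not show whether raised members carry the motif more often than others. They read 5′ to 3′ along the gene, and capitals mark every base covered by a match. Their positions are chr19:34583279-34583528, plus strand (Ifit3), chr5:120907526-120907775, minus strand (Oas1a), chr12:26456453-26456702, minus strand (Rsad2), chr4:156200819-156201068, minus strand (Isg15), chr8:71537473-71537722, minus strand (Bst2) and chr11:101448162-101448411, plus strand (Ifi35).
Ifit3: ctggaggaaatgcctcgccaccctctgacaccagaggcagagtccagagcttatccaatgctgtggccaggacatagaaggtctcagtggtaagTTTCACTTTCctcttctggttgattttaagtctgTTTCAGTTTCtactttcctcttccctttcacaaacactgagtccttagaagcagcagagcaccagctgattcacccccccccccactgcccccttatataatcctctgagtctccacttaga
Oas1a: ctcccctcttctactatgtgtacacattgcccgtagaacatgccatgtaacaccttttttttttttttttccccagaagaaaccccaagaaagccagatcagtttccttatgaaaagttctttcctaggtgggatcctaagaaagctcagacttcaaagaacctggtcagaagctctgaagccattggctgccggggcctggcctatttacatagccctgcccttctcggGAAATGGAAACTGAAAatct
Rsad2: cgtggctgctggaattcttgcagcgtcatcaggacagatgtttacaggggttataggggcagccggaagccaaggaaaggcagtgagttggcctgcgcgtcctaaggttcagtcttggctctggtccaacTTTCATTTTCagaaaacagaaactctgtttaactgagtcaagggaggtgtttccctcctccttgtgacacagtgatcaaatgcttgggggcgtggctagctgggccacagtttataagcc
Isg15: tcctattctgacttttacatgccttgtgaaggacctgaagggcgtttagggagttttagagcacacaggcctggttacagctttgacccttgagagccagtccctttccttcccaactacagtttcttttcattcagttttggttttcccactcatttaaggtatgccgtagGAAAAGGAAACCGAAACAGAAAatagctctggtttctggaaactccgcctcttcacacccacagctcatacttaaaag
Bst2: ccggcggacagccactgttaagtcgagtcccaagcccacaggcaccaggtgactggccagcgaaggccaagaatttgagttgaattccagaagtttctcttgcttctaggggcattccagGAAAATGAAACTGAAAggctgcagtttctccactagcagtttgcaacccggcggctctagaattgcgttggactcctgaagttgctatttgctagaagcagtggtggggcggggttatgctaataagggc
Ifi35: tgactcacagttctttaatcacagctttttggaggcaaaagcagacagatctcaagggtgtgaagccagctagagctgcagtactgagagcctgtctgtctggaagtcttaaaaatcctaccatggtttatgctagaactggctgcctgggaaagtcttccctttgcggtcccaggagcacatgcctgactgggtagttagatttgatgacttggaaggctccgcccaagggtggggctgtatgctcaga
Isg15 held 3 overlapping matches in 1 run, Oas1a and Bst2 held 2 overlapping matches each, Ifit3 held 2 separate matches and Rsad2 held 1. A match describes the letters of the window and was not tested for binding, and the absence of a match says nothing beyond this window.

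Several members are neighbours. Ifit2, Ifit3, Ifit3b and Ifit1 lie in this order on chromosome 19, all on the plus strand, with 7111, 19238 and 27469 bases between them. Rsad2 and Cmpk2 lie on opposite strands 12751 bases apart on chromosome 12, and Oas2 and Oas3 are 3244 bases apart on chromosome 5. Dtx3l and Parp9 overlap by 682 bases on opposite strands of chromosome 16, and the strand setting of the libraries is not given in the sources used here, so reads from the overlap cannot be assigned with certainty. Near-identical copies matter for other members. Of the 31-base stretches of its transcripts, Oas1a shares 68.8% with other genes, Ifit3 61.8%, Ifit3b 55.3% and Ifi204 34.6%. The levels of these 4 members and of their relatives are less certain than those of the rest. The next highest shares were 21.9% for Ifi203 and 20.5% for Ifitm3, so the rest are not free of this limit.

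Levels are given in TPM (transcripts per 1000000), which scales each gene by its length and by its library's total. These values keep no trace of the sequencing depth, which is unknown. The listed genes summed to 927024 to 937134 TPM per library. Fibroblast markers were abundant in every group, with all 9 markers at a mean of 1 TPM or more and a summed level of 9750.1 to 11270 TPM in DMSO. The members were not silent in DMSO. Together they summed to 5792 to 6904 TPM in the DMSO libraries, with Ifitm3 (3550.1 TPM on average), Lgals3bp (799.9 TPM), Ifi27 (615 TPM) and Bst2 (289.8 TPM) the most abundant, and 6 members (Oas2, Oas3, Oasl1, Mx1, Rsad2 and Cmpk2) were under 2 TPM.

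The 8 compounds split into 5 that raised the members and 3 that lowered them. Differences are log2 fold changes against DMSO on the log2(TPM + 1) scale, which understates changes of genes with few TPM, and a member is said to rise or fall where the limma p-value, adjusted over all 13644 tested genes, was under 0.05. In bulk RNA, fewer cells of a type and less RNA per cell cannot be told apart, and since library numbers run consecutively within each group, processing order and group cannot be told apart either. Under Antimycin A 36 of the 37 members rose and 0 fell, against 21.8% of all tested genes called higher and 15.5% called lower, and the median change of the members was 1.34 against 0.032 for all tested genes. Under Diphenyleneiodonium Cl 35 rose and 0 fell (14% and 11.7% of all tested genes), with a median of 1.12 against 0.017. BerberineA followed with 36 higher and 0 lower (12.6% and 9.16% of all tested genes) and a median of 0.91 against 0.023. Clofilium tosylate raised 34 and lowered 0 (10.9% and 12.5%), with a median of 0.64 against -0.00015. Dihydrorotenone raised 24 and lowered 0 (4.95% and 9.43%), with a median of 0.37 against -0.033, and this count was 15 when the 2 groups were fitted alone.

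The other 3 compounds moved the members down. AEG 3482 lowered 31 members and raised 2, where 26.8% of all tested genes were lower and 41.3% higher, with a median of -0.62 against 0.097 for all tested genes. Podofilox lowered 35 and raised 1 (20% and 26.2% of all tested genes), with a median of -0.88 against 0.036. Cardamonin lowered 36 and raised 0 (33% and 37.3%), with a median of -1.38 against 0.033. In all, 270 of the 296 pairs of a member and a compound passed the threshold. Of the members, 20 passed it in the common direction under all 8 compounds. No such pooled counts are given for all tested genes, of which 14.4% under Dihydrorotenone to 70.3% under Cardamonin were called in either direction. At an unadjusted limma p under 0.05 the counts of 0 stayed at 0, with 0 members lower under any of the 5 raising compounds and 0 higher under Cardamonin. All 8 comparisons share the 6 DMSO libraries, so they are not independent of each other.

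**Figure D1:**
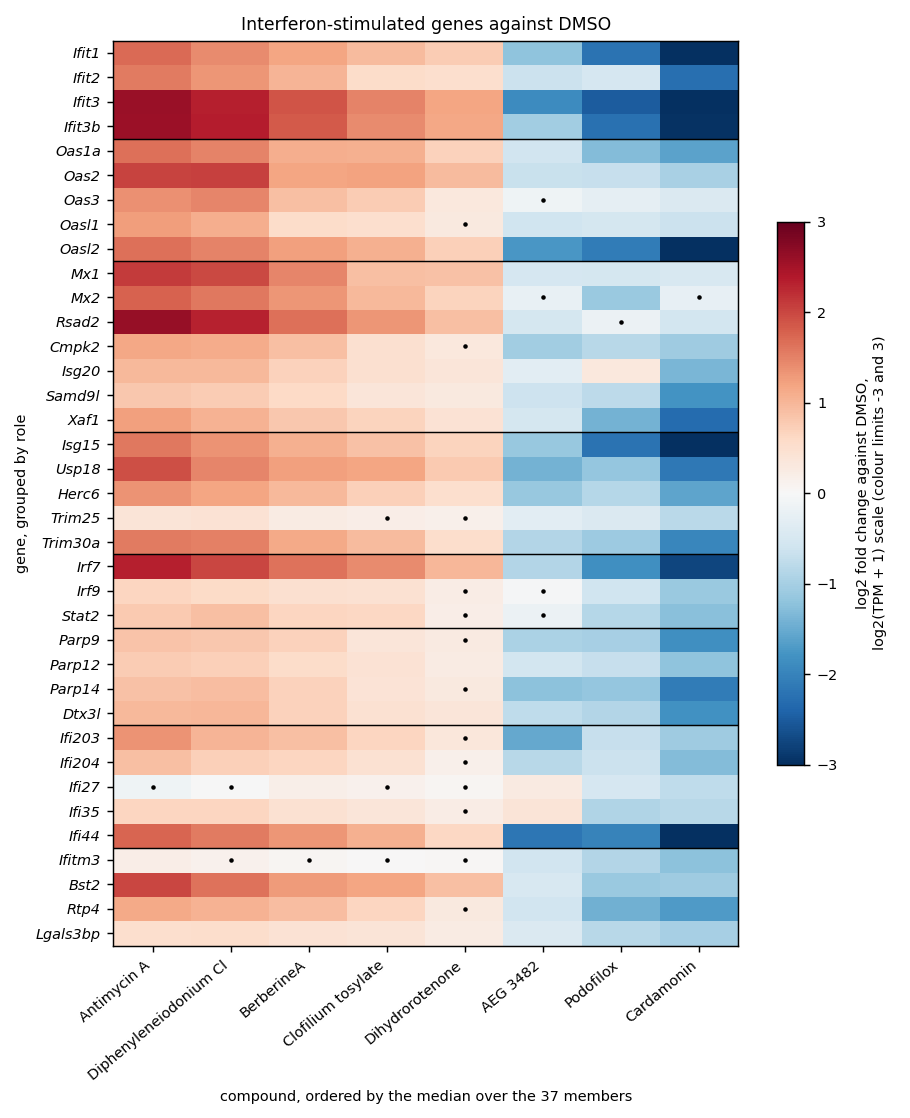
Log2 fold change against DMSO (colour, log2(TPM + 1) scale) of the 37 members (vertical axis, grouped by role) under the 8 compounds (horizontal axis, ordered by the members' median), with a dot where the adjusted p was 0.05 or more. The first 5 columns are red in all but a few cells and the last 3 are blue except for Isg20 under Podofilox and for Ifi27 and Ifi35 under AEG 3482.

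Large changes were concentrated at the ends of this order. At least a 2-fold rise with an adjusted p under 0.05 was seen in 23 members under Antimycin A (1.30% of all tested genes), 24 under Diphenyleneiodonium Cl (0.733%), 16 under BerberineA (0.440%), 10 under Clofilium tosylate (0.396%) and 2 under Dihydrorotenone (0.0733%). At least a 2-fold fall was seen in 28 members under Cardamonin (9.04% of all tested genes), 15 under Podofilox (2.05%) and 11 under AEG 3482 (5.89%). The 2 members that reached 2-fold under Dihydrorotenone were Ifit3 and Ifit3b, which share much of their sequence.

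The separate libraries of the groups kept to this split. The median difference of the members from the DMSO mean lay between 1.19 and 1.49 in the Antimycin A libraries, 1.07 and 1.21 under Diphenyleneiodonium Cl, 0.81 and 1.07 under BerberineA, 0.63 and 0.71 under Clofilium tosylate and 0.32 and 0.59 under Dihydrorotenone. It lay between -0.76 and -0.58 under AEG 3482, -0.95 and -0.76 under Podofilox and -1.51 and -1.32 under Cardamonin. The DMSO libraries lay between -0.042 and 0.16 except replicate 6, which was at -0.37 and gave the lowest DMSO value of 31 of the 37 members. Every treated library was therefore outside the DMSO range on its own side, while neighbouring raising groups overlapped or lay close together. Without DMSO replicate 6 the counts of risen members were 36 for Antimycin A, 35 for Diphenyleneiodonium Cl, 35 for BerberineA, 34 for Clofilium tosylate and 21 for Dihydrorotenone, and the counts of fallen members were 32 for AEG 3482, 35 for Podofilox and 37 for Cardamonin. Shares of all tested genes called are not given for this fit. How many of all tested genes were lowest in DMSO replicate 6 is not given either, so a low value particular to the members was not tested. Members varied more between DMSO libraries (median SD 0.22 in log2(TPM + 1)) than tested genes in general (0.12).

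**Figure D2:**
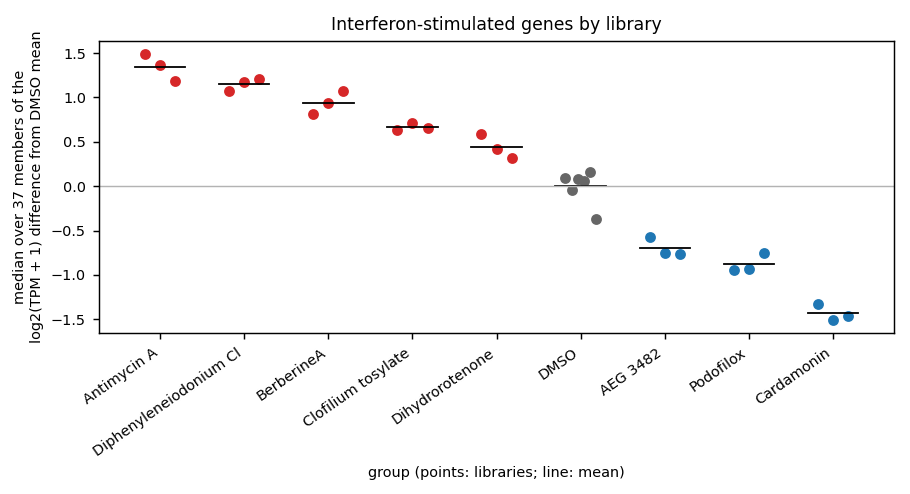
Median over the 37 members of the log2(TPM + 1) difference from the DMSO mean (vertical axis) for each library (points) in the 9 groups (horizontal axis), with the group mean as a line, red for raising compounds, grey for DMSO and blue for lowering ones. The treated libraries run from 1.49 under Antimycin A down to -1.51 under Cardamonin, and DMSO replicate 6 stands at -0.37 below the other DMSO libraries.

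The order of the compounds was taken from the medians of these same 37 members, and most of them shared it. The counts that follow describe agreement among the members and are not a test of the order. Shares of all tested genes are not given for them. The 5 raising compounds stood in exactly the order Antimycin A, Diphenyleneiodonium Cl, BerberineA, Clofilium tosylate, Dihydrorotenone in 27 of the 37 members. Antimycin A and Diphenyleneiodonium Cl were the 2 highest groups in 36 members, and Dihydrorotenone gave the smallest change of the 5 in 35. Antimycin A was the highest of all 9 groups in 28 members, Diphenyleneiodonium Cl in 8 and AEG 3482 in 1 (Ifi27). Cardamonin was the lowest group in 32 members, Podofilox in 4 (Mx1, Mx2, Ifi35 and Bst2) and AEG 3482 in 1 (Ifi203). Described over the 9 group means, 34 members had a Pearson correlation of 0.9 or more with the median profile of the others, and Isg20 (0.89), Ifi35 (0.84) and Ifi27 (0.60) had the lowest. These 9 points share the DMSO libraries and the scaling of each library, and the share of all tested genes with such a correlation is not given.

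Direct contrasts between neighbours showed which steps of the order exceeded the spread. By limma adjusted p, 0 members differed between Antimycin A and Diphenyleneiodonium Cl (6.04% of all tested genes differed), with a median difference of 0.11, and 4 were higher under Antimycin A at an unadjusted p under 0.05. Antimycin A was the highest group in 28 members against 8 for Diphenyleneiodonium Cl, and the count of members past the threshold was 1 with a pseudocount of 5 TPM and 2 with these groups fitted alone, so a difference between them is neither established nor shown to be absent. Diphenyleneiodonium Cl stood above BerberineA in 2 members, Oas2 and Oas3 (0.623% of all tested genes), with a median difference of 0.25. At an unadjusted limma p under 0.05, 17 members were higher under Diphenyleneiodonium Cl and 1 was lower. By limma adjusted p, 0 members differed between BerberineA and Clofilium tosylate (2.81%), with a median difference of 0.19, and 7 were higher under BerberineA at an unadjusted p under 0.05. Clofilium tosylate stood above Dihydrorotenone in Oas3 and Stat2 (2.46%), with a median difference of 0.22. At an unadjusted limma p under 0.05, 12 members were higher under Clofilium tosylate and 0 lower. Unadjusted shares of all tested genes are not given for these steps. None of the 4 adjusted calls, Oas2 and Oas3 in the earlier step and Oas3 and Stat2 in this one, was kept in every alternative. The count of 2 for Diphenyleneiodonium Cl against BerberineA became 0 without Diphenyleneiodonium Cl replicate 2 or BerberineA replicate 2, and 1 without Diphenyleneiodonium Cl replicate 3 or BerberineA replicate 1. The count of 2 for Clofilium tosylate against Dihydrorotenone became 0 without any 1 of their 6 libraries, and the count of 0 for BerberineA against Clofilium tosylate became 1 without BerberineA replicate 1 or Clofilium tosylate replicate 2.

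Steps of more than 1 place were clearer. These 6 contrasts were chosen after the order was seen. Antimycin A stood above BerberineA in 12 members and below it in 1 (9.04% of all tested genes differed), above Clofilium tosylate in 27 and below it in 1 (5.21%), and above Dihydrorotenone in 34 and below it in 0 (15.5%). The member that was lower under Antimycin A was Ifi27 in both cases. Diphenyleneiodonium Cl stood above Clofilium tosylate in 16 members (3.15%) and above Dihydrorotenone in 33 (3.68%), with 0 lower in each. BerberineA stood above Dihydrorotenone in 8 members and below it in 0 (1.51%).

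The step from the raising to the lowering compounds was the largest. Dihydrorotenone stood above AEG 3482 in 35 members and below it in 1, Ifi27, with a median difference of 1.21 (65.4% of all tested genes differed). AEG 3482 stood above Podofilox in 16 members and below it in 2, Isg20 and Ifi203, and this share of the members was under the 60.3% of all tested genes that differed between these 2 compounds. Podofilox stood above Cardamonin in 26 members and below it in 1, Mx2, with a median difference of 0.52 (57.8% of all tested genes).

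The IFIT proteins, which bind foreign RNA and block its translation, had the largest median change of the 8 role groups under 7 compounds, with AEG 3482 the exception. All 4 rose under each of the 5 raising compounds and all 4 fell under each of the 3 lowering ones, with medians of 2.13 under Antimycin A and -3.34 under Cardamonin. Ifit3 stood at 71.9 to 140.1 TPM (median 132) in the 6 DMSO libraries, and at 785, 756 and 616 TPM under Antimycin A, 571, 629 and 575 under Diphenyleneiodonium Cl, 416, 406 and 487 under BerberineA, 319, 352 and 328 under Clofilium tosylate and 319.8, 258 and 233 under Dihydrorotenone. It read 35.1, 34.1 and 25.3 TPM under AEG 3482, 15.4, 21.1 and 24.2 under Podofilox and 10.1, 5.36 and 7.86 under Cardamonin. No treated library entered the DMSO range in either direction, and the 3 Cardamonin libraries were the lowest of all 30. The log2 fold changes were 2.59, 2.32, 1.88, 1.49 and 1.18 for the raising compounds in order (SE 0.18 in each comparison) and -1.88, -2.50 and -3.79 for AEG 3482, Podofilox and Cardamonin, with limma adjusted p from 7.44e-16 under Cardamonin to 8.54e-05 under Dihydrorotenone. Its near copy Ifit3b changed by 2.56 under Antimycin A and -2.96 under Cardamonin. Ifit1, the sensor of foreign cap structures, changed by 1.71 and -3.71, from a DMSO mean of 68.5 ± 13.7 TPM (SD, n = 6). Ifit2, at 13.2 ± 2.41 TPM in DMSO (SD, n = 6), had smaller values in 2 of the lowering groups, with -0.64 under AEG 3482 and -0.51 under Podofilox against -2.27 under Cardamonin.

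The oligoadenylate synthetases make a short RNA-like messenger that activates RNase L. All 5 rose under 4 of the raising compounds, 4 of 5 rose under Dihydrorotenone, and the falls were 4 of 5 under AEG 3482 and 5 of 5 under Podofilox and Cardamonin. Oasl2 stood at 63.2 to 113 TPM (median 95.4) in the 6 DMSO libraries, and at 318, 278 and 267 TPM under Antimycin A, 242, 268 and 262 under Diphenyleneiodonium Cl, 201, 207 and 240.4 under BerberineA, 184, 199 and 188 under Clofilium tosylate and 153, 155 and 144 under Dihydrorotenone. It read 32.5, 23.1 and 24.3 TPM under AEG 3482, 16.5, 20.2 and 25.1 under Podofilox and 6.57, 3.40 and 5.78 under Cardamonin. Oasl2 had the largest fall of any member, -3.91 under Cardamonin (SE 0.15, limma adjusted p = 1.43e-17), with all treated libraries outside the DMSO range. Oas2 and Oas3 were among the 8 members that were highest under Diphenyleneiodonium Cl, with 2.06 against 2.02 under Antimycin A for Oas2 and 1.46 against 1.37 for Oas3, and neither direct contrast passed the threshold. Oas1a changed by 1.65 under Antimycin A and -1.61 under Cardamonin. Oas2, Oas3 and Oasl1 averaged 1.21 ± 0.345, 0.602 ± 0.0747 and 1.22 ± 0.325 TPM in DMSO (SD, n = 6), so on this scale their falls had little room, and Oas3 under AEG 3482 (-0.14, limma adjusted p = 0.235) was not past the threshold.

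Among the antiviral effectors, Mx1 and Mx2 are dynamin-like GTPases, Rsad2 (viperin) makes a chain-terminating nucleotide, and Cmpk2 is the nucleotide kinase encoded beside it. All 7 members of this group rose under 4 raising compounds and 6 of 7 under Dihydrorotenone, while 6 of 7 fell under AEG 3482 and Cardamonin and 5 of 7 under Podofilox. Rsad2 had the largest rise of any member, 2.62 under Antimycin A (SE 0.15, limma adjusted p = 8.3e-13), and averaged 12.1 ± 2.09 TPM there (SD, n = 3) against 1.15 ± 0.466 TPM with the solvent (SD, n = 6). Mx1 rose by 2.10 under Antimycin A, and its changes under the lowering compounds were -0.51, -0.53 and -0.48 for AEG 3482, Podofilox and Cardamonin. Mx2, a gene annotated as a polymorphic pseudogene, rose by 1.77 under Antimycin A and fell by 1.10 under Podofilox. Under Cardamonin, where most members fell furthest, Mx2 averaged 11.3 ± 1.96 TPM against 13.6 ± 2.47 in DMSO and was not past the threshold (limma adjusted p = 0.167). Without DMSO replicate 6 all 37 members, Mx2 included, were lower under Cardamonin.

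Xaf1, which antagonises an inhibitor of apoptosis, was the most abundant effector of this group. Xaf1 stood at 65.2 to 98.7 TPM (median 84.9) in the 6 DMSO libraries, and at 211, 211 and 179 TPM under Antimycin A, 168, 188 and 169.6 under Diphenyleneiodonium Cl, 147, 148 and 154 under BerberineA, 132, 139 and 134 under Clofilium tosylate and 131, 110.2 and 106 under Dihydrorotenone. It read 62.9, 54.2 and 57.3 TPM under AEG 3482, 24.6, 32.7 and 36.7 under Podofilox and 19.2, 11.3 and 19.9 under Cardamonin. The raised libraries lay above all DMSO values and the lowered ones below them. The change ran from 1.23 under Antimycin A to -2.30 under Cardamonin (SE 0.14), and the smallest, 0.44 under Dihydrorotenone (limma adjusted p = 0.0299), was lost in 7 of the alternatives, among them the fits without Dihydrorotenone replicate 1 (limma adjusted p = 0.183), Dihydrorotenone replicate 2 (0.0663) and DMSO replicate 6 (0.0564). Samd9l, a translational repressor, rose by 0.81 under Antimycin A and fell further under Cardamonin (-1.79). Under Podofilox Cmpk2 and its neighbour Rsad2 gave unlike values, with -0.83 for Cmpk2 (limma adjusted p = 1.44e-06) and -0.17 for Rsad2 (limma adjusted p = 0.383), a difference that was not tested.

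Isg15 is a ubiquitin-like protein that is attached to other proteins, in the mouse by the ligase Herc6, and removed by Usp18, which also restrains signalling at the receptor. Isg15 stood at 70.1 to 113 TPM (median 85.1) in the 6 DMSO libraries, and at 271, 282 and 238 TPM under Antimycin A, 211, 235 and 229 under Diphenyleneiodonium Cl, 177, 179 and 199 under BerberineA, 145, 179.9 and 161 under Clofilium tosylate and 162, 129 and 128 under Dihydrorotenone. It read 41.1, 42.7 and 33.4 TPM under AEG 3482, 13.9, 20.5 and 20.4 under Podofilox and 8.66, 4.86 and 9.07 under Cardamonin. No treated library entered the DMSO range, while the BerberineA and Clofilium tosylate libraries overlapped each other, as did those of Clofilium tosylate and Dihydrorotenone. Of the 5 members of this group, 5 rose under 3 raising compounds and 4 under Clofilium tosylate and Dihydrorotenone, and all 5 fell under each lowering compound. The changes were 1.58, 1.36, 1.07, 0.88 and 0.66 for the raising compounds in order and -1.15, -2.21 and -3.41 for the lowering ones (SE 0.15). Usp18 rose by 1.93 under Antimycin A and fell by 2.15 under Cardamonin, and Herc6 rose by 1.34 and fell by 1.58. The TRIM ubiquitin ligases differed in size. Trim30a rose by 1.57 under Antimycin A, while Trim25, the ligase that activates the RNA sensor RIG-I, rose by 0.38 and was not past the threshold under Clofilium tosylate (0.20, limma adjusted p = 0.0545) and Dihydrorotenone (0.14, limma adjusted p = 0.205).

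Of the transcription factors, Irf7 amplifies interferon production, and Stat2 and Irf9 are subunits of ISGF3. Irf7 stood at 46.4 to 72 TPM (median 62) in the 6 DMSO libraries, and at 333, 303 and 301 TPM under Antimycin A, 215, 273 and 255 under Diphenyleneiodonium Cl, 181, 189.6 and 199 under BerberineA, 144, 195 and 160.1 under Clofilium tosylate and 141, 123 and 108 under Dihydrorotenone. It read 37.6, 35.2 and 26.6 TPM under AEG 3482, 15.1, 14.7 and 19.9 under Podofilox and 8.69, 6.58 and 9.60 under Cardamonin. Every treated library lay outside the DMSO range. Irf7 changed by 2.34, 1.99, 1.62, 1.42 and 1.0 under the raising compounds in order and by -0.88, -1.83 and -2.75 under the lowering ones (SE 0.13), with limma adjusted p = 7.94e-13 under Antimycin A. Stat2 and Irf9 moved less, by 0.79 and 0.65 under Antimycin A and by -1.26 and -1.10 under Cardamonin. Neither passed the threshold under Dihydrorotenone (0.21 and 0.21) or AEG 3482 (-0.17 and -0.036), so in AEG 3482 only Irf7 of these 3 members fell.

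The ADP-ribosyltransferases and Dtx3l, the ubiquitin ligase partner of Parp9, moved by similar amounts. All 4 rose under 4 raising compounds, 2 of 4 under Dihydrorotenone, and all 4 fell under each lowering compound, with changes between 0.76 and 0.96 under Antimycin A and between -2.09 and -1.21 under Cardamonin. Parp12 stood at 34.5 to 45 TPM (median 43) in the 6 DMSO libraries, and at 74.3, 69.8 and 71.1 TPM under Antimycin A, 70.8, 69 and 68.9 under Diphenyleneiodonium Cl, 55.3, 63 and 68.2 under BerberineA, 55.6, 58 and 56.2 under Clofilium tosylate and 49, 49.9 and 51.5 under Dihydrorotenone. It read 29, 29.2 and 27.3 TPM under AEG 3482, 24.2, 25.6 and 27 under Podofilox and 17.4, 16.4 and 18.9 under Cardamonin. Parp12 had the smallest SE of the 4, and all 8 comparisons passed the threshold, with the smallest change, 0.25 (SE 0.065), under Dihydrorotenone, a call that was lost when the 2 groups were fitted alone (limma adjusted p = 0.0829). Parp14 stood at 12.5 to 22 TPM (median 20) in the 6 DMSO libraries, and at 38.2, 33.8 and 34 TPM under Antimycin A, 36.2, 36.3 and 36.2 under Diphenyleneiodonium Cl, 27, 32 and 33.5 under BerberineA, 26.1, 26.3 and 23.8 under Clofilium tosylate and 22.7, 24.1 and 22.2 under Dihydrorotenone. It read 7.97, 7.39 and 6.91 TPM under AEG 3482, 7.04, 7.65 and 8.84 under Podofilox and 3.85, 3.45 and 3.61 under Cardamonin. Under Dihydrorotenone the Parp14 libraries lay just above the highest DMSO value and the change was 0.28 (limma adjusted p = 0.0911), and its rise under Clofilium tosylate was lost with the 2 groups fitted alone (limma adjusted p = 0.0878). Parp9 and Dtx3l, whose genes overlap, changed by 0.86 and 0.96 under Antimycin A and by -1.84 and -1.81 under Cardamonin.

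The IFI proteins were a mixed group. Of the 5, 4 rose under Antimycin A, Diphenyleneiodonium Cl and Clofilium tosylate, 5 under BerberineA and 1 under Dihydrorotenone, while under AEG 3482 2 rose and 3 fell and under Podofilox and Cardamonin all 5 fell. Ifi44, whose protein is implicated in slowing cell growth, followed the common pattern. Ifi44 stood at 27.8 to 50.1 TPM (median 44.9) in the 6 DMSO libraries, and at 156, 147 and 124 TPM under Antimycin A, 125, 128 and 120.3 under Diphenyleneiodonium Cl, 99.6, 103 and 118 under BerberineA, 85.6, 88.9 and 90.1 under Clofilium tosylate and 72.9, 62.8 and 59.9 under Dihydrorotenone. It read 10.7, 7.90 and 7.14 TPM under AEG 3482, 8.81, 9.53 and 10.6 under Podofilox and 2.93, 1.87 and 3.27 under Cardamonin. Its fall under AEG 3482 (-2.18, SE 0.14, limma adjusted p = 6.25e-13) was the largest of any member under that compound, and no treated library entered the DMSO range. Ifi203 and Ifi204 belong to the DNA-binding p200 family. Ifi203 fell by 1.53 under AEG 3482, against 0.69 under Podofilox and 1.08 under Cardamonin. Ifi204 fell by 0.84 under AEG 3482, 0.64 under Podofilox and 1.31 under Cardamonin.

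Of the proteins at membranes or outside the cell, Bst2 (tetherin) holds budding virus at the surface and Ifitm3 blocks viral fusion in endosomes. Of the 4 members of this group, 4 rose under Antimycin A, 3 under Diphenyleneiodonium Cl, BerberineA and Clofilium tosylate and 2 under Dihydrorotenone, and all 4 fell under each lowering compound. Bst2 stood at 228 to 332 TPM (median 289) in the 6 DMSO libraries, and at 1180.5, 1255 and 1053 TPM under Antimycin A, 867, 935 and 879 under Diphenyleneiodonium Cl, 661, 700.0 and 732 under BerberineA, 612, 728 and 619 under Clofilium tosylate and 605, 519.9 and 489 under Dihydrorotenone. It read 222, 209 and 186 TPM under AEG 3482, 112, 145 and 142 under Podofilox and 137, 119 and 159 under Cardamonin. The changes were 2.01, 1.63, 1.27, 1.18 and 0.90 under the raising compounds in order and -0.48, -1.12 and -1.06 under the lowering ones (SE 0.11), and each treated library lay outside the DMSO range. The Podofilox and Cardamonin libraries overlapped. Ifitm3 behaved otherwise among the raising compounds. Ifitm3 stood at 3193 to 3886 TPM (median 3519) in the 6 DMSO libraries, and at 4179.8, 4324 and 3797 TPM under Antimycin A, 3779, 3809 and 3949.8 under Diphenyleneiodonium Cl, 3572, 3817 and 3654 under BerberineA, 3512, 3699 and 3527 under Clofilium tosylate and 3889, 3550.4 and 3386 under Dihydrorotenone. It read 2373, 2419 and 2377 TPM under AEG 3482, 1838, 1998 and 1926 under Podofilox and 1565, 1542 and 1447 under Cardamonin. Under the raising compounds the groups overlapped DMSO, and of the 5 only Antimycin A passed the threshold, with 0.21 (SE 0.056, limma adjusted p = 0.00442), a call that was lost when the 2 groups were fitted alone (limma adjusted p = 0.0564). The lowering groups lay below all DMSO libraries, with -0.57, -0.88 and -1.22 for AEG 3482, Podofilox and Cardamonin. Lgals3bp, a secreted glycoprotein, rose by 0.51 under Antimycin A and fell by 1.0 under Cardamonin. Rtp4, a chaperone of receptors, averaged 3.18 ± 1.01 TPM in DMSO (SD, n = 6), rose by 1.13 under Antimycin A and fell by 1.70 under Cardamonin.

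**Figure D3:**
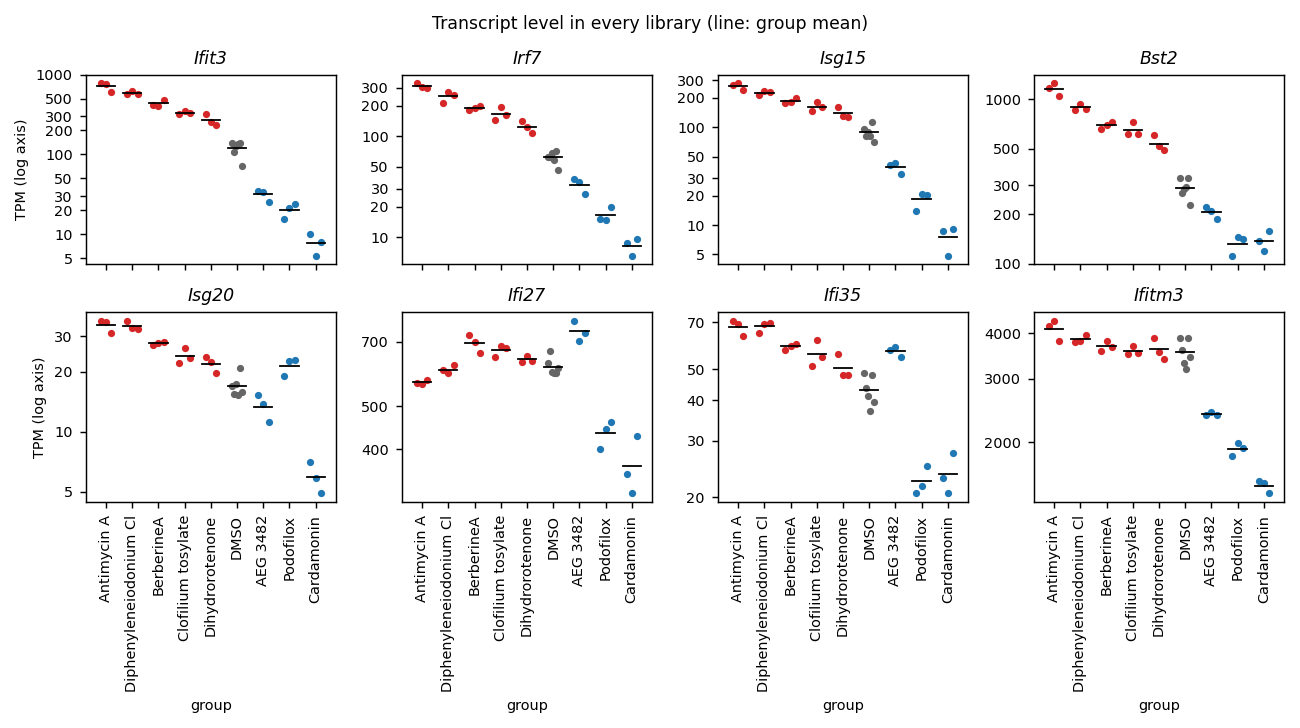
TPM on a log axis (vertical) of 8 members in every library (points) of the 9 groups (horizontal axis), with the group mean as a line and the colours red for raising compounds, grey for DMSO and blue for lowering ones. Ifit3, Irf7, Isg15 and Bst2 descend from Antimycin A to DMSO and on to Cardamonin or Podofilox, while Isg20 is raised again under Podofilox, Ifi27 and Ifi35 stand above DMSO under AEG 3482, and Ifitm3 overlaps DMSO under all 5 raising compounds.

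Isg20, Ifi27 and Ifi35 departed from the common pattern by the rule used, that is by passing the threshold against the direction of most members or by following that direction in fewer than 4 of the 8 comparisons. Ifitm3, with 4 comparisons in the common direction and 0 against it, lay just outside this rule. Ifi27 met both parts of the rule, with 3 comparisons in the common direction and 1 against it. Isg20 (chr7:78913424-78920396, plus strand, ENSMUSG00000039236) encodes an RNA exonuclease. Isg20 stood at 15.3 to 20.7 TPM (median 16.4) in the 6 DMSO libraries, and at 35.9, 35.6 and 31 TPM under Antimycin A, 35.8, 32.9 and 32.7 under Diphenyleneiodonium Cl, 27.3, 27.7 and 28.2 under BerberineA, 22.1, 26.1 and 23.3 under Clofilium tosylate and 23.6, 22.4 and 19.8 under Dihydrorotenone. It read 15.2, 13.7 and 11.1 TPM under AEG 3482, 18.9, 22.5 and 22.8 under Podofilox and 7.04, 5.85 and 4.89 under Cardamonin. It rose under the 5 raising compounds, a call that was lost for Dihydrorotenone without replicate 1 (limma adjusted p = 0.103) or replicate 2 (0.0692) of that group, and fell by 1.38 under Cardamonin, but under Podofilox, where 35 members fell, it rose by 0.32 (SE 0.099, limma adjusted p = 0.00868). The Podofilox libraries overlapped the DMSO range, and over 21 alternatives the adjusted p ran from 0.00166 to 0.0564, with the highest value in the fit without Podofilox replicate 3. Its fall under AEG 3482, -0.33 (limma adjusted p = 0.00518), was lost without AEG 3482 replicate 3 (limma adjusted p = 0.0862). Directly compared, Isg20 was lower under AEG 3482 than under Podofilox, with a log2 difference of AEG 3482 minus Podofilox of -0.65 (limma adjusted p = 2.31e-05).

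Ifi27 (chr12:103434211-103440239, plus strand, ENSMUSG00000064215) encodes a small membrane protein and rose past the threshold under 1 of the 5 raising compounds. Ifi27 stood at 594 to 667 TPM (median 604) in the 6 DMSO libraries, and at 565, 563 and 573 TPM under Antimycin A, 604, 594 and 619 under Diphenyleneiodonium Cl, 726, 699 and 661 under BerberineA, 645, 686 and 679 under Clofilium tosylate and 631, 651 and 634 under Dihydrorotenone. It read 781, 703 and 733 TPM under AEG 3482, 399.6, 444 and 460.1 under Podofilox and 351, 318 and 429 under Cardamonin. The Antimycin A libraries lay just below the DMSO range, with -0.12 (SE 0.062, limma adjusted p = 0.143), and under 2 other scalings, quantile normalization and rescaling without the 20 most abundant genes, this value passed the threshold as a fall. The 4 other raising compounds overlapped DMSO, and the rise under BerberineA (0.18, limma adjusted p = 0.0419) was lost in 13 of 21 alternatives, over which the adjusted p ran from 0.0234 to 0.445, including each fit without BerberineA replicate 1 or 2 or without DMSO replicate 3, 4, 5 or 6. Under AEG 3482 all 3 libraries lay above the DMSO range and Ifi27 rose by 0.26 (limma adjusted p = 0.00054, range 0.000265 to 0.0474 over 21 alternatives). Ifi27 fell with the other members under Podofilox (-0.50) and Cardamonin (-0.76).

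Ifi35 (chr11:101448407-101458698, plus strand, ENSMUSG00000010358) encodes a partner of the cytokine-induced protein NMI. Ifi35 stood at 37.1 to 48.5 TPM (median 42.4) in the 6 DMSO libraries, and at 70.7, 69.3 and 63.3 TPM under Antimycin A, 64.9, 69.3 and 69.7 under Diphenyleneiodonium Cl, 57.6, 59.1 and 59.9 under BerberineA, 51, 61.4 and 54.6 under Clofilium tosylate and 55.7, 48.1 and 48 under Dihydrorotenone. It read 57.2, 58.6 and 54.4 TPM under AEG 3482, 20.6, 21.7 and 24.9 under Podofilox and 22.9, 20.5 and 27.5 under Cardamonin. Its changes under the raising compounds in order were 0.65, 0.65, 0.45, 0.37 and 0.23, the last of which was not past the threshold. Under AEG 3482 all 3 libraries lay above the DMSO range, and Ifi35 rose by 0.40 (SE 0.084, limma adjusted p = 0.00018, range 7.35e-05 to 0.0249 over 21 alternatives). Under Podofilox and Cardamonin the libraries lay below every DMSO value, with -0.91 and -0.84, so the 3 lowering compounds split for this gene. The direct difference of AEG 3482 minus Podofilox was 1.31 (limma adjusted p = 1.51e-11). Of the annotated transcripts of Ifi35, 12.8% of the 31-base stretches are shared with the gene Gm11626.

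The interferon genes had low or 0 values. A 0 in a table of estimated abundances need not mean absence: the receptor kinase Tyk2, named after its values were seen, was listed at 0 in Clofilium tosylate replicate 3 and ran from 1.47e-08 to 1.08 TPM among the DMSO libraries. Of 13 genes for type I and type III interferons, 12 did not pass the filter on low values, and Ifna1, Ifna4, Ifna5, Ifna11, Ifna12, Ifnl2 and Ifnl3 were listed at 0 in all 30 libraries. Ifnb1, the interferon typical of fibroblasts, was above 0 in 6 libraries and reached at most 0.186 TPM. Ifne, which did not pass the filter and was not tested, was above 0 in 13 libraries and at 0 in all 6 DMSO libraries. It read 0.571, 0.689 and 0.379 TPM under AEG 3482 and 0.245, 0.208 and 0.375 TPM under Cardamonin. Under the other compounds it reached at most 0.190 TPM. Ifnz passed the filter, at 1.5 ± 0.369 TPM in DMSO (SD, n = 6), and rose under AEG 3482 (0.72, SE 0.18) and fell under Cardamonin (-0.66). Transcripts at 48 h do not show whether interferon was present earlier or as protein.

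For the pathway lists that follow, the share of all tested genes called in either direction was 37.3% under Antimycin A, 25.7% under Diphenyleneiodonium Cl, 21.7% under BerberineA, 23.4% under Clofilium tosylate, 14.4% under Dihydrorotenone, 68.1% under AEG 3482, 46.2% under Podofilox and 70.3% under Cardamonin. Of 9 receptor and kinase genes, 7 were tested. Under Antimycin A 1 rose and 2 fell, and under Diphenyleneiodonium Cl 0 rose and 1 fell. Under BerberineA 1 rose and 2 fell, under Clofilium tosylate and Dihydrorotenone 0 rose and 2 fell, and under AEG 3482 2 rose and 4 fell, under Podofilox 2 and 5, and under Cardamonin 2 and 4. These are 42.9% of the list under Antimycin A and BerberineA, 14.3% under Diphenyleneiodonium Cl, 28.6% under Clofilium tosylate and Dihydrorotenone, 85.7% under AEG 3482 and Cardamonin and all 7 under Podofilox, and with 7 genes nothing particular to the list was read from them. Ifnar2, a receptor chain for type I interferon, averaged 171 ± 11.3 TPM in DMSO (SD, n = 6). It changed by -0.003, 0.10, 0.16, -0.032 and 0.066 under the raising compounds in order, of which only the BerberineA value passed, and fell by 0.39, 0.52 and 0.76 under AEG 3482, Podofilox and Cardamonin. Ifnar1 and Jak2 fall outside the rule for naming and were chosen after their values were seen. Ifnar1, the other chain, rose under the lowering compounds (0.11, 0.12 and 0.17, SE 0.049), and Jak2 fell under them (-1.67, -0.63 and -1.76, SE 0.073). The kinase Jak1 rose under the lowering compounds by 0.53, 0.11 and 0.32. Ifngr1, which binds interferon gamma, fell under all 8 compounds, with log2 fold changes of -0.83, -0.53, -0.54, -0.66 and -0.45 under the raising and -0.90, -0.99 and -1.26 under the lowering ones. The shared receptor chain Il10rb fell under 7, with -0.19 under Diphenyleneiodonium Cl not past the threshold.

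The 6 STAT and IRF genes described outside the members were all tested. Under Antimycin A and Podofilox 1 rose and 1 fell, under Diphenyleneiodonium Cl 1 rose, under AEG 3482 1 rose and 2 fell, and under Cardamonin 1 rose and 3 fell, while BerberineA, Clofilium tosylate and Dihydrorotenone gave no limma call. Under Antimycin A (33.3% of the list) and Cardamonin (66.7%) the share called was near that of all tested genes. Stat3, a transcription factor downstream of many cytokine receptors, had values of 0.029, 0.098, 0.024, 0.032 and 0.02 under the raising compounds in order, none past the threshold, and 0.22 under Podofilox and -0.25 under Cardamonin, both past it. Irf1, an early interferon target, fell by 1.55 under Cardamonin and by 0.18 under Antimycin A. Its libraries under AEG 3482 (32.8 to 37.1 TPM) and Podofilox (35.6 to 40.7 TPM) also lay below the DMSO range of 49.6 to 63.8 TPM. Under each raising compound the Irf1 libraries overlapped that range.

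Of the 9 negative regulators of signalling, all were tested. Under Antimycin A 1 rose and 3 fell, under Diphenyleneiodonium Cl and BerberineA 0 rose and 1 fell, under Clofilium tosylate 0 rose and 3 fell, and under Dihydrorotenone 0 moved. Under AEG 3482 2 rose and 4 fell, under Podofilox 2 rose and 2 fell, and under Cardamonin 2 rose and 6 fell. In either direction these are 44.4%, 11.1%, 11.1%, 33.3% and 0 of the list under the raising compounds in order and 66.7%, 44.4% and 88.9% under the lowering ones, shares near those of all tested genes in several cases. Socs3, a feedback inhibitor of cytokine receptors, fell under 4 raising compounds (-0.85, -0.37, -0.58 and -0.57 in order) and under AEG 3482 (-1.52) and Cardamonin (-1.62, SE 0.13), so its sign was the same where most members rose and where they fell.

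The nucleic acid sensors and adaptors contained genes that moved with the members and others that did not. Of 16 tested, 10 rose and 1 fell under Antimycin A, 9 and 1 under Diphenyleneiodonium Cl and BerberineA, 7 and 2 under Clofilium tosylate, and 3 and 1 under Dihydrorotenone. Under AEG 3482 4 rose and 8 fell, and under Podofilox and Cardamonin 2 rose and 11 fell. In either direction these are 68.8%, 62.5%, 62.5%, 56.2% and 25.0% of the list under the raising compounds in order and 75.0%, 81.2% and 81.2% under the lowering ones, against 68.1% and 70.3% of all tested genes under AEG 3482 and Cardamonin. Zbp1, a sensor of left-handed nucleic acid and itself an interferon target, stood at 27.1 to 44.8 TPM (median 41.3) in DMSO, 141, 138 and 119 TPM under Antimycin A and 2.33, 3.40 and 2.82 TPM under Cardamonin, changes of 1.73 and -3.39 (SE 0.13). The RNA sensors Ddx58 (RIG-I), Ifih1 (MDA5) and Dhx58 rose by 0.65, 0.78 and 1.16 under Antimycin A and changed by -2.36, -1.76 and -2.13 under Cardamonin. The nuclease Trex1, the RNA editor Adar and the nucleotide hydrolase Samhd1 rose under Antimycin A by 0.61, 0.53 and 0.69. Tmem173 (STING), the adaptor of cytosolic DNA sensing, fell under all 8 compounds, with log2 fold changes of -0.54, -0.35, -0.26, -0.35 and -0.28 under the raising and -0.25, -0.68 and -1.09 under the lowering ones (SE 0.06). Mb21d1, annotated as Cgas, which makes the messenger that STING binds, was named after its values were seen. It stood at 1.48 to 1.90 TPM (median 1.71) in DMSO, at 6.43, 6.81 and 7.60 TPM under AEG 3482 and at 10.5, 11 and 12.9 TPM under Cardamonin, and rose by 1.56 and 2.20 (SE 0.07) under compounds that lowered most members.

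**Figure D4:**
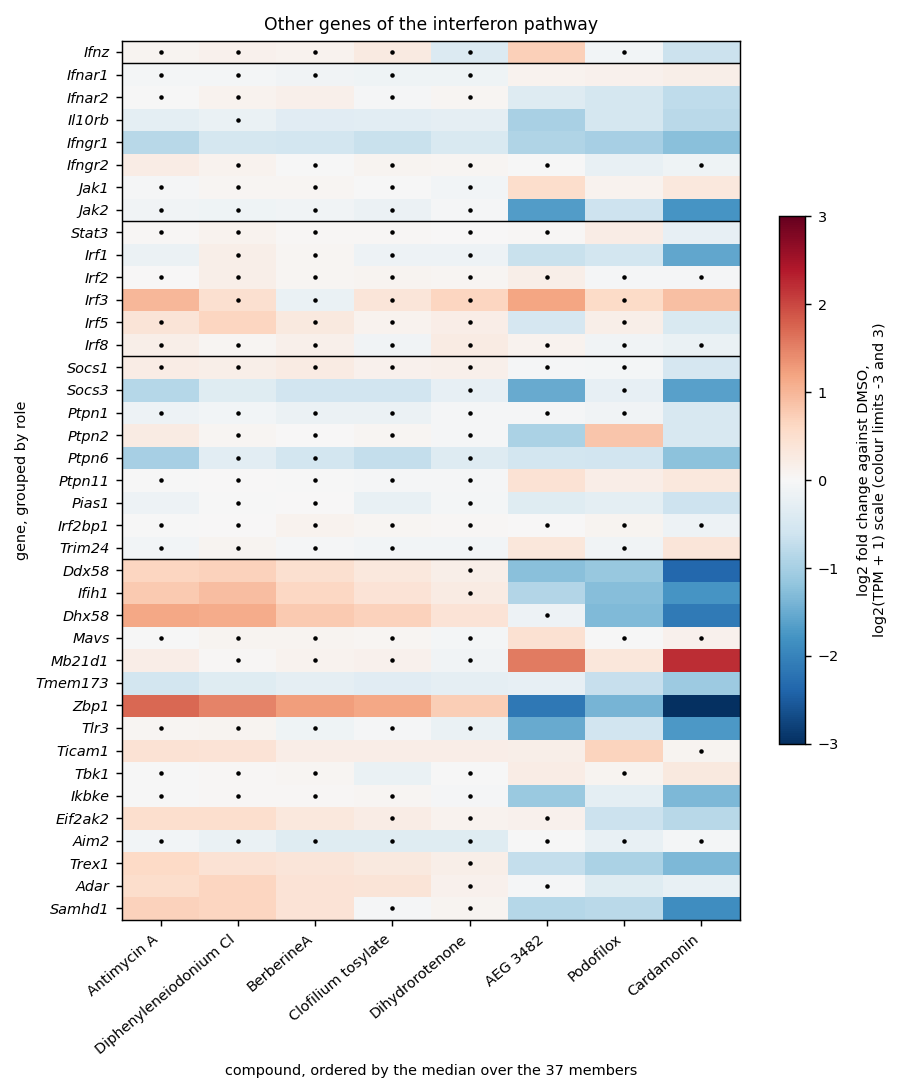
Log2 fold change against DMSO (colour, log2(TPM + 1) scale) of tested genes of the interferon pathway outside the members (vertical axis, grouped by role: ligand, receptors and kinases, STATs and IRFs, negative regulators, sensors and adaptors) under the 8 compounds (horizontal axis), with a dot where the adjusted p was 0.05 or more. Zbp1, Ddx58, Ifih1 and Dhx58 show red on the left and blue on the right, Ifngr1 and Tmem173 are blue throughout, and Mb21d1 is red under AEG 3482 and Cardamonin.

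Markers of other cell types also differed between groups. The 7 macrophage markers summed to 166 to 227 TPM in DMSO and were lower under every compound, from 57.8 to 74.4 TPM under Antimycin A to 126 to 139 TPM under Dihydrorotenone, with 117 to 137 TPM under Cardamonin. Lyz2, the most abundant of them, averaged 157 ± 17.8 TPM in DMSO (SD, n = 6) and 41.4 ± 6.60 TPM under Antimycin A (SD, n = 3), and Adgre1 averaged 10.4 ± 1.05 and 2.62 ± 0.464 TPM, while the defining leukocyte marker Ptprc was at 0.722 ± 0.126 TPM in DMSO. Lyz2 made up most of the sum, and Cd68 went the other way. It averaged 33.1 ± 7.95 TPM under Cardamonin and 17.1 ± 1.53 TPM under BerberineA (SD, n = 3), both past the threshold, against 13.1 ± 1.46 TPM with the solvent (SD, n = 6). Of the 6 macrophage markers tested, 3 to 5 fell under each compound. The macrophage sum was thus lower both where the members rose and where they fell, and its part in the result was not tested. Of 5 plasmacytoid dendritic cell markers only Tcf4 reached 1 TPM and Klk1 was listed at 0 in all libraries. The summed lymphocyte markers stayed under 1.9 TPM, with Nkg7 listed at 0 throughout, and the keratinocyte markers under 0.91 TPM, with Krt5 at 0. The 5 endothelial markers summed to 6.13 to 9.82 TPM in DMSO, 2.23 to 2.93 TPM under Cardamonin and 2.40 to 2.55 TPM under AEG 3482. Tek carried this sum, with means of 6.56, 0.562 and 1.12 TPM in these groups. Vwf went the other way under Cardamonin, at 1.34 against 0.813 TPM in DMSO. Of the 2 endothelial markers tested there, 1 rose and 1 fell. The fibroblast sum was 3803 to 4815 TPM under Cardamonin and 10768 to 12147 TPM under AEG 3482, 2 compounds that lowered most members. All 9 fibroblast markers fell under Cardamonin, whereas under AEG 3482 6 fell, among them Dcn (608 against 1472 TPM in DMSO), and 2 rose, Col3a1 (4732 against 2726 TPM) and Vim (3574 against 2542 TPM), which carry the sum. Their part in the result was not tested either.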

How the data were processed

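RNA from 30 libraries (6 DMSO, 3 for each of 8 compounds) was sequenced on 1 instrument type, and groups were taken from the sample labels. The authors deposited 1 table of TPM values, made with kallisto 0.43.1 and checked with FastQC per the submitters' processing notes, and summarised to genes with tximport per the series text. The transcript index is not given in the sources used here. TPM keeps no record of sequencing depth, so no counting intervals were computed, and the number of libraries limits the precision. Of 29861 gene identifiers, 98.8% matched a GENCODE M21 symbol.

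From these values log2(TPM + 1) was computed. The 13644 genes that reached 1 TPM in 3 or more libraries entered 1 fit over all 30 libraries with limma 3.58.1 in R 4.3.3 (empirical Bayes with an intensity trend), after the procedure was tested on simulated data. P-values were adjusted over all tested genes by Benjamini-Hochberg, with a threshold of 0.05. The 37 members and the role, pathway and marker lists were chosen with earlier results of these data known. All members are named. Values in every library are given for 13 that stand for the roles or depart from the pattern. Of each pathway list, the 3 genes of highest mean and any that passed in at least 5 comparisons could be named. One gene of the pathway lists is not reported here. Alternatives covered the pseudocount, the filter on low values, scaling, the trend, the groups fitted, the replicate number as a block and each library left out. The highest correlation between libraries was 0.9925 and 0 pairs were identical.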

Additional observations from a re-analysis of the deposited data

Results flagged for a closer look

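Of the 37 members, 3 had a DMSO library whose gap to the nearest of the other 5, divided by the range of all 6, was above Dixon's critical value for 6 samples. Chance gives about 1 such case in 20 tests, and 37 tests were made, so some of the 3 can be chance. DMSO replicate 6 gave the lowest DMSO value of 31 members, so the tests are not independent. Oas1a was at 4.96 TPM in DMSO replicate 6, where the nearest library was at 7.26 TPM (ratio 0.827). Parp12 was at 34.5 TPM in the same library, where the nearest was at 42.0 TPM (ratio 0.714). Oas3 was at 0.741 TPM in DMSO replicate 4, above the nearest library at 0.602 TPM (ratio 0.667).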

How the results depend on the processing

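For the 13 members given in every library, over all alternatives, 1946 calls past the threshold were kept, 28 were lost and 0 changed sign, while of values not past it 192 stayed so, 8 became past it and 10 changed sign. Members past the threshold between Diphenyleneiodonium Cl and BerberineA (2 as reported) numbered 0 with a pseudocount of 0.1 TPM, with a mean of at least 5 TPM or with the 2 groups fitted alone, and 0 to 2 with 1 library left out. Those between Clofilium tosylate and Dihydrorotenone (2) numbered 0 with a pseudocount of 0.1 TPM, 1 with a pseudocount of 5 TPM, no filter, a mean of at least 5 TPM, median-ratio scaling, no intensity trend or the replicate block, and 0 to 0 with 1 library left out. Those between Antimycin A and Diphenyleneiodonium Cl (0) numbered 1 with a pseudocount of 5 TPM and 2 with the groups fitted alone. Those between BerberineA and Clofilium tosylate (0) numbered 3 with a pseudocount of 5 TPM, 2 with the replicate block, 1 with the groups fitted alone, and 0 to 1 with 1 library left out. Members higher under Dihydrorotenone (24) numbered 15 with the 2 groups fitted alone, 30 with median-ratio scaling, and from 18 (without Dihydrorotenone replicate 1) to 28 (without DMSO replicate 5). Members lower under Antimycin A (0) numbered 1, Ifi27, with quantile normalization or rescaling without the 20 most abundant genes, and members higher under Podofilox (1) numbered 0 to 1 with 1 library left out. With a mean of at least 5 TPM, Oas2 and Oas3 were removed before testing, so the loss of their calls there follows from the filter. The cause of the other shifts was not tested. Shares of all tested genes called are not given for the alternatives. The sign changed in values near 0. Under Dihydrorotenone these were Ifi27 (-0.0135) and Ifitm3 (-0.0417) with quantile normalization, and Ifitm3 with 1 library left out (-0.030 to 0.070). Under Clofilium tosylate Ifitm3 was -0.00499 with DMSO replicates 1 to 3 only or the replicate block, and -0.014 to 0.042 with 1 library left out. Under Diphenyleneiodonium Cl Ifi27 was -0.039 to 0.00091 with 1 library left out. The members' median kept its sign in all 8 comparisons, and under Antimycin A ran from 1.06 with a pseudocount of 5 TPM to 1.5 with one of 0.1 TPM. The deviations of same-numbered libraries had a mean correlation of 0.00787 (-0.107 to 0.151, with 4 of 108 pairs over 0.1). The labels do not say whether same-numbered libraries were handled together, which a mean over all pairs cannot settle. Apart from the counts named above, the block moved no other count by over 1.5 times. Depth is unknown, so how far it limits members near 1 TPM could not be tested.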
